A study of Mus musculus with 2 samples.

Results

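Positions of RUNX2 CUT&Tag peaks were described at 8 nuclear hormone receptor genes with roles in bone, out of 21887 protein-coding genes on chromosomes 1 to 19, X and Y. The 8 genes are Vdr, Nr3c1, Esr1, Rara, Rarg, Rxra, Thra and Ppard, and all 8 were matched by symbol in the RefSeq gene table of GRCm38.p6. The cells were untreated MC3T3-E1, an established mouse line of osteoblast precursors, without any genetic change named in the labels. There is a single group of 2 replicate libraries made with an antibody against RUNX2, the Runt-family factor needed for bone formation, and the stated purpose was to find its transcriptional targets. In CUT&Tag the antibody directs the Tn5 transposase to cut chromatin where the protein lies. Peaks counted for a gene if they touched its span or lay within 50 kb of either end. A place where a peak of replicate 1 and a peak of replicate 2 overlapped by at least 1 bp is called a shared region. In these windows lay 54 of the 26853 peaks of replicate 1, 45 of the 27287 peaks of replicate 2, and 36 of the 18133 shared regions. No control library is among the samples and the lists give no peak height, so levels of binding, read depth and expression were not measured here. Expression being unmeasured, the labelled cell type could not be checked against marker genes. Nothing in the labels tells if each replicate was its own culture, so their spread may be technical.

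Nuclear hormone receptors are transcription factors switched by small fat-soluble ligands. The steroid receptors, among them the glucocorticoid receptor (Nr3c1) and oestrogen receptor alpha (Esr1), bind DNA mainly as pairs of themselves. The vitamin D receptor (Vdr), the retinoic acid receptors (Rara, Rarg), thyroid hormone receptor alpha (Thra) and the fatty acid sensor PPAR delta (Ppard) bind with the retinoid X receptor, here represented by Rxra, as a common partner. In bone, vitamin D, oestrogen, glucocorticoids, thyroid hormone and retinoids all act on cells of the osteoblast lineage.

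Shared regions covered a listed transcription start of Vdr, Rarg and Ppard. RefSeq start windows of 300 bases (250 before and 50 from the start on) were found for 6 of the 8 genes, and for 3 of these 6 a window overlapped a shared region, against 33.0% of the 17492 protein-coding genes with a listed start. The 250 bases before each of these starts are given because peaks of both replicates fell on all or part of them. At Vdr, most of both peaks lay beyond the start, inside the gene, and is not shown. They are written 5′ to 3′ on the strand of the gene, and capitals mark the bases that lay inside a peak of replicate 1 and a peak of replicate 2. Rarg has 2 listed starts, and shared regions covered both. At the internal start, at 102246500, only the peak of replicate 2 (102246422 to 102246813) reached the start itself. The peak of replicate 1 there (102246569 to 102247537) lay wholly before it.
Vdr, chr15:97908297-97908546, minus strand, 58 bases in both peaks: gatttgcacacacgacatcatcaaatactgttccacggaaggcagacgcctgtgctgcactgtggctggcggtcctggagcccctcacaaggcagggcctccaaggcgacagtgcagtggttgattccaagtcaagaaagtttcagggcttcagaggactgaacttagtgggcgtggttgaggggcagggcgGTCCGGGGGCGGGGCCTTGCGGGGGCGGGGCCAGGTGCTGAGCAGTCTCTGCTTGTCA
Rarg upstream start, chr15:102257523-102257772, minus strand, 250 bases in both peaks: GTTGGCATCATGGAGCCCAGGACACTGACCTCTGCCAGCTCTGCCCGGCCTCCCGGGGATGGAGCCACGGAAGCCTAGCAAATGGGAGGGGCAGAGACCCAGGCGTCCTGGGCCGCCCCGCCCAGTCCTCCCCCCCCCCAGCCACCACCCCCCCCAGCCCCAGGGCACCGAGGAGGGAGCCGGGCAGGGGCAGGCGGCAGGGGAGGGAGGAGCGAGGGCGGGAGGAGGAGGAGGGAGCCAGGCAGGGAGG
Rarg internal start, chr15:102246501-102246750, minus strand, 182 bases in both peaks: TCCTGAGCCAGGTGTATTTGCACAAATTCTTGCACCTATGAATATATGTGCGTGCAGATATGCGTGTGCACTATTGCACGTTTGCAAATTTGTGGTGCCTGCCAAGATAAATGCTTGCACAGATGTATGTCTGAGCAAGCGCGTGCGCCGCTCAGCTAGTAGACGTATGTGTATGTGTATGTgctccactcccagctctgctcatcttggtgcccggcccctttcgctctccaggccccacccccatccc
Ppard, chr17:28232504-28232753, plus strand, 173 bases in both peaks: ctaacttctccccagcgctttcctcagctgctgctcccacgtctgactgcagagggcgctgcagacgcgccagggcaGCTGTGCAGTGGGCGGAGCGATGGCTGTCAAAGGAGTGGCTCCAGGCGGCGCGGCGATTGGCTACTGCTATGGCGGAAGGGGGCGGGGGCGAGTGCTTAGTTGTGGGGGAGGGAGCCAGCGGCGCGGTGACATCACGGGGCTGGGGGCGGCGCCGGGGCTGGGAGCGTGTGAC
The RUNX core, searched as TGTGGT or TGCGGT on both strands, was present in the window of the internal Rarg start, from base -160 relative to the start on the gene's own strand, within the part covered by both peaks. The windows of Vdr, Ppard and the upstream Rarg start held no match, and 1 of the 4 Rara windows, outside any shared region, held one from base -240. Among all 32851 listed start windows, 22.4% held the RUNX core, as did 22.8% of the 7492 windows that overlapped a shared region. A match is a run of letters and not a measured binding site. The nuclear receptor half-site AGGTCA was found in the upstream Rarg window as TGACCT, from base -225, in 10.4% of the windows that overlapped a shared region and in 16.3% of all windows. It was also present, outside any shared region, in 1 Rara window, from base 33, and in 1 Rxra window, from bases -87 and -48. The AP-1 motif TGANTCA was in none of the 12 start windows of these genes and in 7.81% of all windows. All motifs were searched on both strands, and none of them contains another. The 4 covered windows had a GC content of 61.3% for Vdr, 70.0% for the upstream Rarg start, 51.7% for the internal Rarg start and 68.3% for Ppard, where the median over all windows that overlapped a shared region was 62.0% and that over the other windows was 50.3%.

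All 8 receptor genes had at least 1 shared region in their windows, from 1 at Nr3c1 and at Esr1 to 8 at Ppard. The same was true of 69.9% of all protein-coding genes. It held for 78.2% of the 8943 protein-coding genes whose spans lie between those of the shortest member (Rarg, 22.6 kb) and the longest (Esr1, 394 kb), so the presence of a region does not set these genes apart. Peaks of replicate 1 were found in all 8 windows, against 75.6% of protein-coding genes, and peaks of replicate 2 in all 8, against 76.1%. The number of regions varied widely among the receptor genes. Ppard, Rarg, Rxra and Vdr, 4 of the 8, had 5 or more shared regions, against 11.3% of all protein-coding genes and 12.2% of those in the same range of spans. When only regions nearest to the gene's own end were counted, 1 of the 8, Rxra, had 5 or more. The share of all protein-coding genes by that count was not computed.

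**Figure D1:**
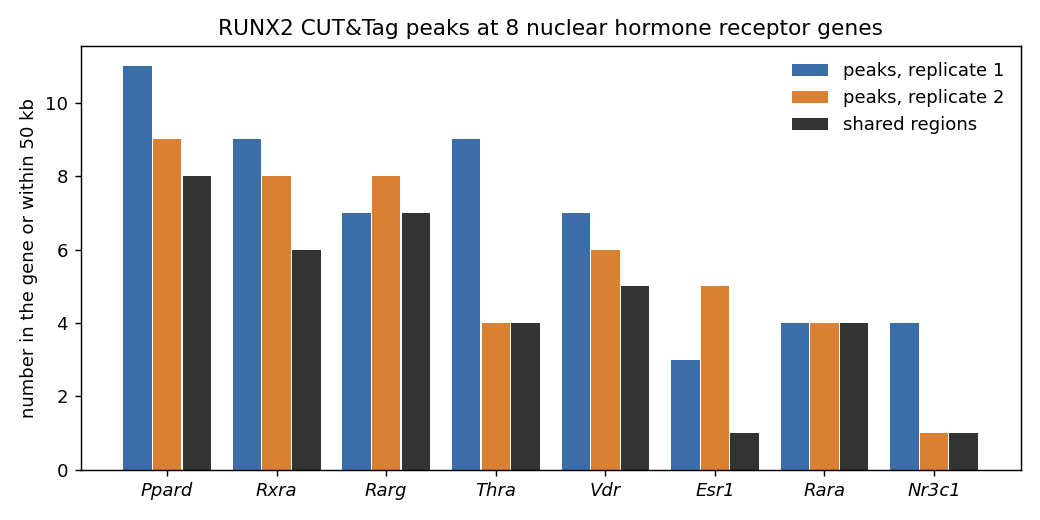
Number of peaks of replicate 1, peaks of replicate 2 and shared regions (y axis, count) in the span or within 50 kb of each of the 8 receptor genes (x axis, ordered by mean number of peaks). Ppard has the tallest bars, with 11 and 9 peaks and 8 shared regions, and Nr3c1 has 4 and 1 peaks and 1 shared region.

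Counts per replicate gave an order in which most neighbouring genes were not separated. Each pair of counts gives replicate 1 and then replicate 2. Ppard had 11 and 9 peaks (10 ± 1.41, mean ± SD, n = 2). Rxra had 9 and 8 (8.5 ± 0.707), and Rarg 7 and 8 (7.5 ± 0.707). Vdr had 7 and 6 (6.5 ± 0.707). Thra had 9 and 4 (6.5 ± 3.54), which was the widest gap between the replicates. Esr1 had 3 and 5 (4.0 ± 1.41), Rara had 4 and 4, and Nr3c1 had 4 and 1 (2.5 ± 2.12). The ranges of neighbours overlapped or touched in this order, which puts Vdr before Thra although their means were equal. With Thra first, Vdr stands next to Esr1, and their ranges were apart. Those of Ppard, Rxra, Rarg and Vdr lay above those of Esr1, Rara and Nr3c1. Within 1 group no test of these differences can be made.

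Per length of window, the receptor genes differed widely, from the 30.4th to the 98.2nd percentile of all protein-coding genes. Rarg had 5.71 shared regions per 100 kb, higher than in 98.2% of protein-coding genes, and Ppard had 4.74, higher than in 95.7%. Vdr (3.25), Rxra (3.21), Thra (3.12) and Rara (2.72) lay at percentiles from 79.9 to 86.5. Nr3c1 had 0.479 and Esr1 0.203, at percentiles of 32.1 and 30.4. Since 30.1% of protein-coding genes had no shared region, both lay near the bottom of the genes that had any. The median over the 8 genes was 3.17, against 0.984 over all protein-coding genes and 1.13 over those in the same range of spans. The windows of Rara, Rarg, Thra and Ppard each also hold 5 or 6 other protein-coding genes, and the median number of shared regions per 100 kb was 2.17 over the 664 genes in the range of spans with 5 or 6 neighbours. It was 0.757 over the 5530 genes with 0 to 2 neighbours, a class in which Vdr, Nr3c1, Esr1 and Rxra fall. The part of gene density in these values was not tested.

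**Figure D2:**
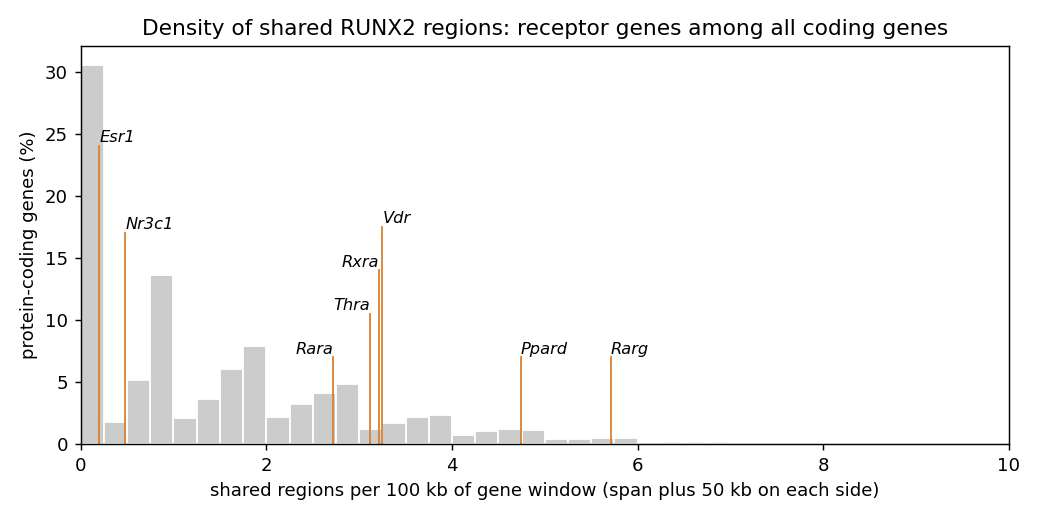
Histogram of shared regions per 100 kb of window (x axis) as a percent of the 21887 protein-coding genes (y axis), in equal steps, with each receptor gene marked by a vertical line whose height has no meaning. Esr1 and Nr3c1 lie at 0.203 and 0.479, Rara, Thra, Rxra and Vdr from 2.72 to 3.25, and Ppard and Rarg at 4.74 and 5.71, and 4 genes over 10 are outside the axis.

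The 2 steroid receptor genes had the fewest regions for their size. Nr3c1, which encodes the glucocorticoid receptor (chromosome 18, 39410545 to 39519421), had no shared region in its span of 108877 bp. Its single shared region (39389247 to 39389487) lay 21178 bp below the low-coordinate end, nearer to the end of Arhgap26. It was narrow, at 205 bp in replicate 1 and 183 bp in replicate 2, which is wider than 12.2% and 6.66% of the peaks in each list. Replicate 1 had 3 further peaks of 237 to 368 bp there, 1 of them inside the gene at 39491064 to 39491387, and replicate 2 had none. Peaks inside Nr3c1 thus rested on replicate 1 alone.

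Esr1, which encodes oestrogen receptor alpha, is the longest of the genes (chromosome 10, 4611989 to 5005633). Its only shared region (4983765 to 4984255) lay inside the gene, 21623 bp from the high end, with widths of 472 bp in replicate 1 and 435 bp in replicate 2. Near the upstream of its 2 listed starts, at 4611989, replicate 2 had a peak of 626 bp from 4612282 to 4612907 that replicate 1 lacked. That peak was the widest single-replicate peak at any of the 8 genes. In all, 2 of 3 peaks of replicate 1 and 4 of 5 peaks of replicate 2 at Esr1 had no counterpart, and all of these lay inside the gene. No shared region came within 50 kb outside either end.

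Rxra, the common partner (chromosome 2, 27676445 to 27763319), had 6 shared regions, and all 6 were nearer to an end of Rxra than to that of any other protein-coding gene. No other protein-coding gene touches its window. None of the regions lay at an end of Rxra, and the nearest to one, from 27758510 to 27759007, was 4561 bp inside the high end. Inside the gene lay 3 regions, of 331 to 549 bp in replicate 1 and 400 to 498 bp in replicate 2. Beyond the high end lay a region from 27785345 to 27786285 that was wide in both lists, at 880 bp and 941 bp. Another there, from 27774311 to 27775339, measured 384 bp in replicate 1 and 1029 bp in replicate 2. The last region (27653468 to 27654054) lay 22684 bp below the low end. The listed starts of Rxra, at 27677201 and 27709292, were 23147 and 5730 bp from the nearest shared region.

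Vdr, which encodes the receptor for active vitamin D (chromosome 15, 97854427 to 97908296, minus strand), carried a wide region at its start. The region from 97907072 to 97908354 covered the start of transcription at 97908296 and measured 1104 bp in replicate 1 and 1283 bp in replicate 2, wider than 97.8% and 99.1% of all peaks. A second wide region (97913904 to 97914808) lay 6060 bp before the start, with 808 bp and 828 bp. The region inside the gene, 20581 bp from the start, was of middle width (357 and 424 bp). The region from 97849339 to 97850213, beyond the other end of the gene, differed between the lists, with 210 bp in replicate 1 and 875 bp in replicate 2. These 4 regions had Vdr as the nearest protein-coding gene, and the fifth, of 178 and 220 bp, was nearer to Hdac7, a histone deacetylase gene.

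Rarg, which encodes retinoic acid receptor gamma (chromosome 15, 102234938 to 102257522, minus strand), is the shortest of the 8 genes and had 7 shared regions in its window, of which 2 touched the gene itself. The region at the upstream start (102257003 to 102258302) was 836 bp in replicate 1 and 983 bp in replicate 2. The region at the internal start (102246422 to 102247537) was 969 bp in replicate 1 and 392 bp in replicate 2, and the peaks shared 245 bp. All 7 peaks of replicate 1 were shared, as were 7 of 8 in replicate 2. The other 5 regions lay outside Rarg and nearer to the ends of Zfp740 (2 regions), the integrin gene Itgb7, Mfsd5 and the separase gene Espl1. Both Zfp740 regions had their midpoints inside Csad. The farther one was 9949 bp from the Zfp740 end and 4514 bp from a listed start of Csad. Of these 5, those at Zfp740 (102203074 to 102203589), Mfsd5 and Espl1 had midpoints 66 to 175 bp from the end of that gene.

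Rara, which encodes retinoic acid receptor alpha (chromosome 11, 98927800 to 98974942, plus strand), had 4 peaks in each list, and all were shared. Its 4 listed starts, from 98937696 to 98964872, lay 2352 to 4985 bp from the nearest shared region, so none was covered. The wider region inside the gene (98942063 to 98942963) measured 615 bp in replicate 1 and 901 bp in replicate 2. It covered the high end of Gm46294, a gene model of 4984 bp inside the span of Rara. The other region inside (98959558 to 98959887) was narrow in replicate 1, at 182 bp, and 330 bp in replicate 2. The 2 regions outside Rara had midpoints 171 bp from an end of Cdc6, a DNA replication licensing gene, and 80 bp from an end of the topoisomerase gene Top2a. Listed starts of Cdc6 and Top2a were 271 and 90 bp from these midpoints.

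Thra, which encodes thyroid hormone receptor alpha (chromosome 11, 98740776 to 98769006), had no shared region in its span, although 4 lay beyond its high end. That end overlaps the neighbouring gene Nr1d1 by 1075 bp. Nr1d1 encodes the circadian haem receptor REV-ERB alpha and was the nearest protein-coding gene for 3 of the 4 regions. The region from 98772824 to 98774214, inside Nr1d1 and 4513 bp beyond Thra, was the widest at any of the 8 genes, at 1272 bp in replicate 1 and 1361 bp in replicate 2, wider than 99.1% and 99.4% of all peaks. The next, from 98775194 to 98775946, covered the high end of Nr1d1, where a start of Nr1d1 is listed, and measured 753 and 635 bp. The only peak inside Thra (98751006 to 98751263, 258 bp) was in replicate 1. In all, 5 of the 9 peaks of replicate 1 at Thra were single, of 172 to 415 bp, and all 4 of replicate 2 were shared. Thra and Rara lie 159 kb apart, and the stretch of 234 kb from the low end of Thra to the high end of Rara held 8 shared regions.

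Ppard, which encodes PPAR delta (chromosome 17, 28232754 to 28301469, plus strand), had the most shared regions. The region at its start (28232501 to 28233027) was 312 bp in replicate 1 and 527 bp in replicate 2, narrower than those at the starts of Vdr and Rarg in both lists, apart from the internal Rarg start in replicate 2. A pair of regions lay close together inside the gene, 24237 and 27238 bp from the start. They measured 540 and 463 bp (28256722 to 28257261), and 595 and 345 bp (28259695 to 28260289). The other 5 lay outside Ppard and nearer to the ends of Def6, Fance, the ribosomal protein gene Rpl10a and, for 2 regions, Tead3, which encodes a partner of YAP. The midpoints of 4 of these 5 were within 1 kb of the neighbour's end, and 17 to 270 bp from a listed start of that neighbour.

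**Figure D3:**
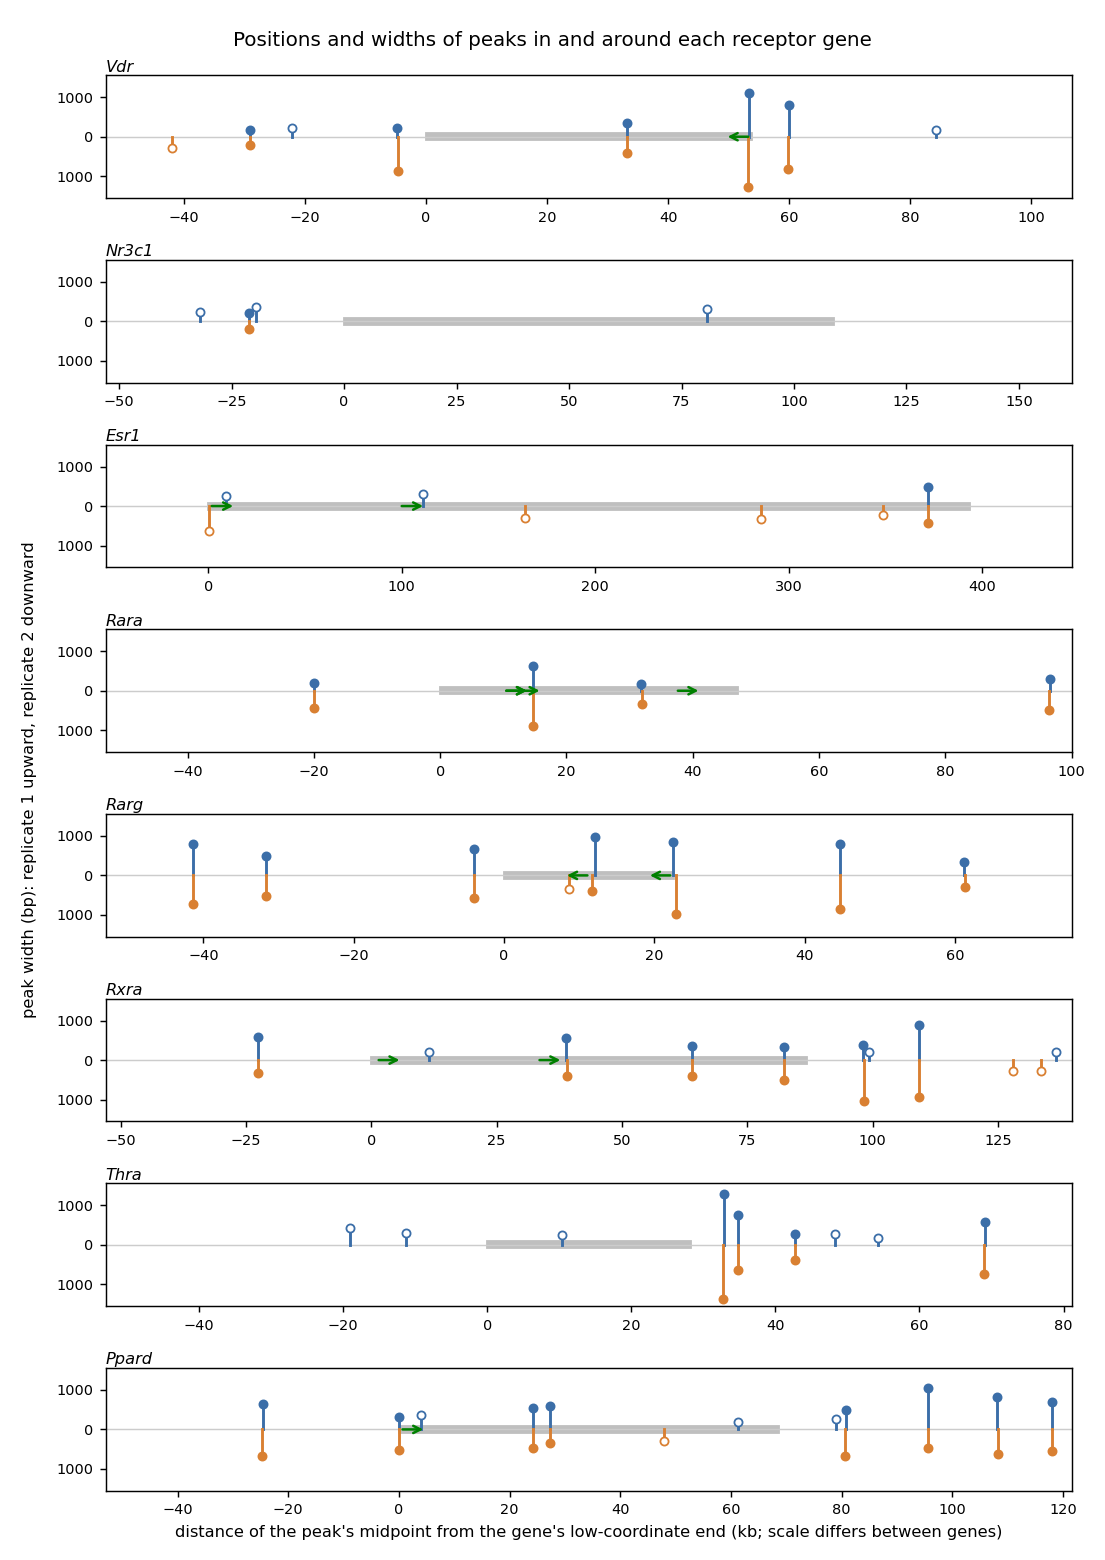
Each panel shows 1 receptor gene as a grey bar, with distance from its low-coordinate end in kb on the x axis and a scale that differs between genes. Stems give peak width in bp on the y axis, upward for replicate 1 (blue) and downward for replicate 2 (orange), filled points mark peaks that overlap a peak of the other list, and green arrows mark listed starts and their direction. Filled stems stand at the starts of Vdr, Rarg and Ppard, while the spans of Nr3c1 and Thra hold open points alone.

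Over the 8 genes, 12 of the 36 regions had their midpoints inside a receptor gene and 24 outside. Shared regions overlapped the spans of 6 of the 8 genes, against 41.4% of all protein-coding genes and 55.1% in the range of spans. The midpoints of 3 regions were within 1 kb of an end of the receptor gene, those at Vdr, Rarg and Ppard, and 10 lay inside over 1 kb from either end. A receptor gene was the nearest protein-coding gene for 17 regions and another gene for 19, and 12 of these 19 lay within 1 kb of that other gene's end. Counted by the nearest gene end, 6 of the 8 genes kept at least 1 region, against 44.0% of all protein-coding genes and 57.1% in the range of spans. Nr3c1 and Thra were the 2 without one. The regions nearest to the receptor gene itself were 6 of 6 at Rxra, 1 of 1 at Esr1, 4 of 5 at Vdr, 3 of 8 at Ppard, 2 of 7 at Rarg, 1 of 4 at Rara, 0 of 4 at Thra and 0 of 1 at Nr3c1. The value at Rxra was fixed by its surroundings. No other protein-coding gene touches its window, and its outside regions lay within 25 kb of an end. Positions alone do not show which gene a region acts on.

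Widths of the 36 regions were ordered alike in the 2 lists to the same degree as elsewhere. Each region consisted of 1 peak from each list. Spearman's rho between the widths was 0.56 over the 36 regions and 0.56 over all 18133, given as a description, since widths in each list also depend on the depth of its library. Median widths were 562.5 bp in replicate 1 and 521.5 bp in replicate 2, against 492 and 497 bp over all shared regions. Both peaks were at or over the 90th percentile of width in 5 regions, at Vdr (2), Rarg, Rxra and Thra. The 10 regions inside receptor genes and over 1 kb from either end had medians of 506 and 417 bp. These 10 include the region at the internal Rarg start (969 and 392 bp) and the one at the Gm46294 end inside Rara (615 and 901 bp). The 18 regions outside and nearest to another gene had medians of 608.5 and 558.5 bp. The range of the inside class lay within that of the outside class, at 182 to 969 bp within 178 to 1272 bp in replicate 1 and 330 to 901 bp within 183 to 1361 bp in replicate 2.

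**Figure D4:**
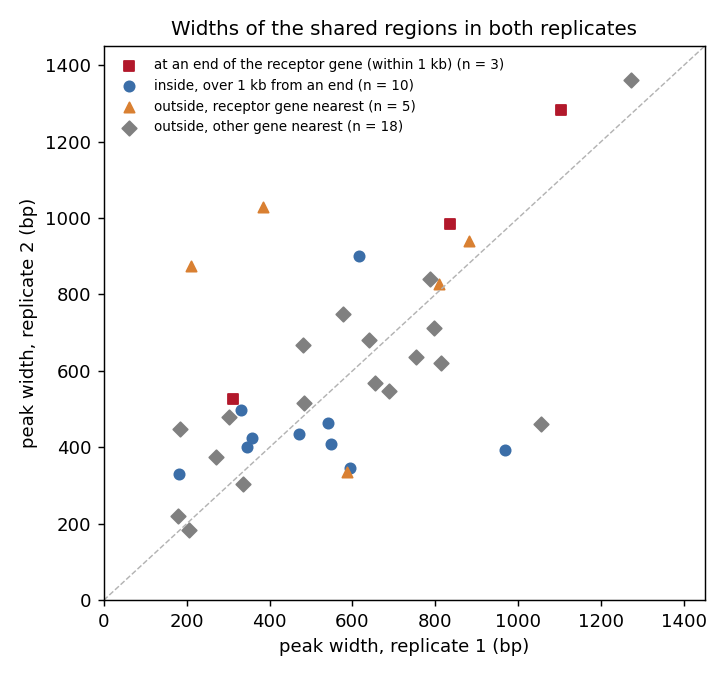
Width of each of the 36 shared regions in replicate 1 (x axis, bp) against replicate 2 (y axis, bp), with symbols for the position relative to the receptor gene and a dashed line where widths are equal. The wide points at upper right include the Nr1d1 region beside Thra (1272 and 1361 bp) and the Vdr start (1104 and 1283 bp), and points far from the line include the internal Rarg start (969 and 392 bp).

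Most peaks in the windows were found in both lists. In replicate 1, 36 of 54 were shared (66.7%, 95% Wilson interval 53.4 to 77.8, counting error only), against 68.2% of the whole list. In replicate 2, 36 of 45 were shared (80.0%, 66.2 to 89.1), against 67.2%. Peaks of a single replicate were narrower, with median widths of 257 bp (18 peaks) in replicate 1 and 287 bp (9 peaks) in replicate 2. The same held over the whole lists, with medians of 260.5 and 256 bp for single peaks against 488 and 493 bp for shared ones. In replicate 1 the single peaks of the windows numbered 5 at Thra, 3 each at Nr3c1, Ppard and Rxra, and 2 each at Esr1 and Vdr. In replicate 2 they numbered 4 at Esr1, 2 at Rxra and 1 each at Ppard, Rarg and Vdr. Rara had none. Few regions lay near the 50 kb limit. The farthest counted were 49098 bp from Rara and 48973 bp from Ppard, at Top2a and Tead3, and the nearest not counted was 54805 bp from Ppard.

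Other genes of the pathway were taken from 4 lists, beside the background of 69.9%. Of 41 other nuclear receptor genes, 32 had a shared region (78.0%, 95% Wilson interval 63.3 to 88.0), with a median of 2 regions a gene and 1.04 per 100 kb. The most were at Esrra, an oestrogen-related receptor gene, and Nr4a1, an early response receptor gene, with 6 each, of which 1 and 4 were nearest to that gene. Pparg, the adipocyte regulator, had 5, as did Nr6a1 and Thrb, which encodes the other thyroid hormone receptor, with 3 nearest to each. All 4 regions of Nr1d1 were those of the Thra window. Esrrb had a single peak, in replicate 2, and Hnf4g had none in either list. Of the 9 genes without a region, the progesterone receptor gene Pgr and the retinoid X receptor gene Rxrg, named after their values were seen, also had no peak in either list.

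Among 22 coregulator genes, 21 had a shared region (95.5%, 78.2 to 99.2), with a median of 2 and 1.16 per 100 kb. Ncoa7 and Carm1, which encodes an arginine methyltransferase coactivator, had 6 each, with 4 and 1 nearest to them. Prmt1 and the histone demethylase gene Kdm1a had 5 each, with 1 and 2 nearest to them. Ppargc1a, the gene of the coactivator PGC-1 alpha, was the 1 without, with a peak in each list at different places.

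Genes for making, breaking down and carrying the ligands were at 19 of 28 (67.9%, 49.3 to 82.1), near the background, with a median of 1 and 0.949 per 100 kb. Crabp2, which carries retinoic acid to its receptors, had 6 regions, 2 of them nearest to it. Aldh1a3, which makes retinoic acid, had 5, with 1 nearest to it. Hsd17b1 had 4, and Dhrs3 (2 nearest) and the vitamin D activating gene Cyp27b1 had 3 each. None of the Cyp27b1 and Hsd17b1 regions was nearest to those genes. The aromatase gene Cyp19a1, Aldh1a2 and Cyp2r1 had no peak in either list.

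Genes known as receptor targets or receptor chaperones were at 28 of 30 (93.3%, 78.7 to 98.2), with a median of 3 and 2.22 per 100 kb, against medians of 2 and 0.984 over all protein-coding genes. Per1, a clock gene induced by glucocorticoids, had 8 regions, of which 2 were nearest to it, and Spp1, the osteopontin gene induced by vitamin D, had 7, of which 4 were. The retinoic acid target Tgm2 and the glucocorticoid target Errfi1 had 6 each, with 5 and 4 nearest to them, and Hsp90ab1, which encodes a chaperone of steroid receptors, had 5, with 1 nearest to it. Fkbp5, a glucocorticoid target named after its values were seen, had 4, of which the 1 at Tead3 also lies in the Ppard window. Klf15 had a single peak in replicate 2, and Tff1 had none in either list. These lists were described by counts and medians, without a test, and the shares do not allow for the length or the neighbours of their genes.

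**Figure D5:**
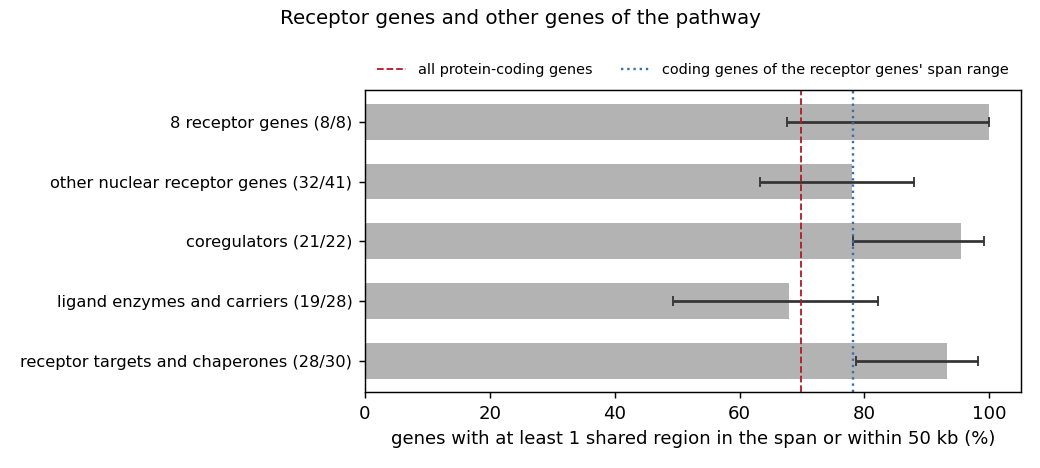
Percent of genes with at least 1 shared region in the span or within 50 kb (x axis) for the 8 receptor genes and 4 lists of pathway genes, with 95% Wilson intervals as bars and the number of genes in brackets. The dashed line is the share of all protein-coding genes (69.9%) and the dotted line that of genes in the receptor genes' range of spans (78.2%), and the interval of the 8 receptor genes, from 67.6 to 100%, includes both lines.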

How the data were processed

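The data are 2 peak lists from CUT&Tag libraries, 1 per replicate. Per the submitters' processing notes, fastp 0.19.6, Bowtie2, deepTools and the build GRCm38 (mm10) were used, without roles or settings, and the peak caller, its threshold and the control, if any, were not given in the sources used here. Without a header, the deposited files give the chromosome, start, end and width of each peak in bp, counted from 1 with both ends included. Depth is unknown, so the calling limits of the lists cannot be compared.

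Gene spans and start windows came from RefSeq tables of GRCm38.p6, which give no exons, so exonic, intronic and UTR positions are not given. Distances run from the midpoint of the merged region to the nearer gene end, and those at the 50 kb limit and from the listed starts of Rxra and Rara run from the region's edge. Percentiles of width give the percent of narrower peaks in the same list. A gene counts as nearest by either of its ends. Overlaps were checked with bedtools 2.31.1, counting was tested on simulated peaks planted at 200 genes, and start windows of opposite strands that overlap were checked to be reverse complements (1841 of 1841). Sequences are those of RefSeq in that table. No start is listed there for Nr3c1 and Thra, and 1 gene of the ligand list (Sts) was not matched.

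The receptor genes and the lists were chosen with earlier results of these data known. The naming rule took all 8 receptor genes, and from each other list up to 5 genes with the most shared regions and up to 3, in alphabetical order, with none. Of the genes this rule selects, 2 are not reported here. Neighbours were named where theirs was the nearest protein-coding gene end, and Csad was added because regions of the Rarg window lay inside it. With 1 group, no contrast was made. The alternatives changed the overlap, the peaks used, the distance, the link to a gene and the replicates. Python 3.11.15, pandas 2.3.3 and scipy 1.17.1 were used.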

Additional observations from a re-analysis of the deposited data

How the results depend on the processing

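Of 153 values from 17 results under 9 alternatives, 106 stayed within 1.5 times the value reported and 47 moved further. All 8 receptor genes kept a region with a reciprocal overlap of at least 50%, under which no value moved, and with either replicate alone. With peaks at or under the median width of each list left out, the 8 windows held 20 regions and the spans 5, with 2 at Vdr, 0 at Nr3c1, 1 at Rara and 2 at Rxra. Counting only regions that touch the span gave 13 regions, with 2 at Vdr, 0 at Nr3c1, 2 at Rara, 2 at Rarg, 3 at Rxra, 0 at Thra and 3 at Ppard. The genes with a region were then 16 of the other receptors, 6 of the ligand list, 18 of the target list and 41.4% of protein-coding genes. With 10 kb beyond the ends there were 18 regions, with 0 at Nr3c1, 2 at Rara, 3 at Rarg, 3 at Rxra, 2 at Thra, 3 at Ppard and 12 ligand genes. With 25 kb, Rarg had 4 and Ppard 5. With 100 kb there were 55 regions, with 8 at Vdr, 2 at Esr1, 11 at Rarg and 11 at Rxra. With only regions nearest to the gene's own end there were 17, with 0 at Nr3c1, 1 at Rara, 2 at Rarg, 0 at Thra, 3 at Ppard, 19 other receptors, 11 ligand genes and 44.0% of protein-coding genes. With 1 replicate alone the counts ran from 18 to 19 inside the spans, from 1 to 4 at Nr3c1, from 3 to 5 at Esr1 and from 4 to 9 at Thra, the higher values of Nr3c1 and Thra being those of replicate 1 and that of Esr1 replicate 2. No paired analysis was possible because there is 1 group. Peak height and depth are unknown, so weaker signal at genes without a called peak cannot be seen.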
